A study of Mus musculus with 12 samples.

Results

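Serine and one-carbon metabolism is represented here by 10 enzyme genes, found by symbol in a table of 17379 mouse genes: Shmt1, Shmt2, Mthfd1, Mthfd2, Mthfd1l, Phgdh, Psat1, Psph, Aldh1l1 and Aldh1l2. The set was drawn up around Shmt1, which was picked because its level in hearts with 2 genetic alterations departed strongly from the sum of the single effects. The set was thus chosen by the measured level of Shmt1 over the 4 groups, and all contrasts of Shmt1, together with the departure from additivity of every member, are given as descriptions with no test. The other 9 members were added for their function in the pathway and were tested in the pairwise comparisons.

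Gene expression was measured by mRNA sequencing of heart tissue from 12 mice of 6 months, 3 in each of 4 groups on a background labelled C57BL. Compound mice were heterozygous for HRCS96A and homozygous for MYBPC3Δ25bp, HRC variant mice carried HRCS96A on 1 allele alone, MYBPC3 deletion mice carried MYBPC3Δ25bp on both alleles alone, and nontransgenic mice were labelled C57BL/WT and carried neither. HRC is a calcium-binding protein in the store from which heart muscle releases calcium, and MYBPC3 is a sarcomere protein that binds myosin. The compound and HRC variant groups were all female, while the MYBPC3 deletion and nontransgenic groups each held 2 males (replicates 1 and 2) and 1 female (replicate 3). The series describes the mutants as transgenic models, and the sources used here do not give the promoter behind any transgene, the founder lines or the breeding. The labels name separate samples and no litter or day, so p-values measure only the spread between these samples.

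Serine hydroxymethyltransferases move a carbon unit from serine to tetrahydrofolate and leave glycine, with SHMT1 in the cytosol and SHMT2 mainly in mitochondria. The carbon unit is then oxidised or reduced on folate by the MTHFD enzymes and released as formate or carbon dioxide, and it feeds the synthesis of purines, thymidylate and methionine. PHGDH, PSAT1 and PSPH act in sequence to make serine from an intermediate of glycolysis, a route that many resting tissues use little and that is raised under mitochondrial stress in mouse heart and muscle.

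Total counts were 15615182 to 20581197 per library, and heart muscle was plain in all 12: each of 12 heart muscle markers was found throughout, with Myh6 at 18522 to 29686 CPM (counts relative to the library total, scaled by trimmed mean of M values) and Ryr2 at 666 to 1437 CPM. Mybpc3 averaged 3705 ± 200 CPM in compound hearts, 3347 ± 478 in HRC variant hearts, 2638 ± 245 in MYBPC3 deletion hearts and 4012 ± 758 in nontransgenic hearts, and Hrc averaged between 1082 and 1185 CPM in the groups (SD, n = 3). A gene-level count does not read a short deletion or a substitution, so these levels do not check the labels. The summed level of 12 atrial muscle markers differed widely between libraries. It was 1146, 1033 and 1491 CPM in compound hearts, 11212, 4324 and 991 in HRC variant hearts, 7981, 5119 and 6914 in MYBPC3 deletion hearts, and 5455, 11381 and 7748 in nontransgenic hearts. The compound hearts and HRC variant replicate 3 thus stood apart from the other 8 libraries in atrial level, with none of the 12 markers at 0 throughout. B-cell markers were high in MYBPC3 deletion replicate 2, at 91 CPM in sum, and in nontransgenic replicate 2, at 53 CPM, against 4.42 to 12 CPM elsewhere. In bulk tissue, fewer cells of a type and less RNA per cell cannot be told apart.

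The regulatory sequence of the gene that chose the set is shown beside those of its mitochondrial counterpart and of Mthfd1. Mthfd1 was the other member with groups lying apart in CPM in both directions. The windows are the 250 bases before the annotated start, on the coding strand, from the RefSeq table of GRCm38.p6: chr11:60811266-60811515 on the minus strand for Shmt1, chr10:127522445-127522694 on the minus strand for Shmt2 and chr12:76254982-76255231 on the plus strand for Mthfd1. In GENCODE the Shmt1 gene reaches to 60811718, so the Shmt1 window lies inside the gene as annotated there. The deposited coordinates of Mthfd1 start at 76254562, ahead of the Mthfd1 window. Capitals mark matches, on either strand, to the GC box GGGCGG and the CCAAT box CCAAT.
Shmt1: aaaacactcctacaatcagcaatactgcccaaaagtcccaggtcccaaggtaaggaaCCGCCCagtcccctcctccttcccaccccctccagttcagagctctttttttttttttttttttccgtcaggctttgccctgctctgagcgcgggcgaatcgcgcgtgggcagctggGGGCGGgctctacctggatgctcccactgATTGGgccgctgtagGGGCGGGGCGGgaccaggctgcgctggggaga
Shmt2: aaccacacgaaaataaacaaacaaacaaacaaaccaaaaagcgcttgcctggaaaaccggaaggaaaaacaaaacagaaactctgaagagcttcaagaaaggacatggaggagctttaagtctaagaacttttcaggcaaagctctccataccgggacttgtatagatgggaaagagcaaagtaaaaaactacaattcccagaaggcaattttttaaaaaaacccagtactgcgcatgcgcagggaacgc
Mthfd1: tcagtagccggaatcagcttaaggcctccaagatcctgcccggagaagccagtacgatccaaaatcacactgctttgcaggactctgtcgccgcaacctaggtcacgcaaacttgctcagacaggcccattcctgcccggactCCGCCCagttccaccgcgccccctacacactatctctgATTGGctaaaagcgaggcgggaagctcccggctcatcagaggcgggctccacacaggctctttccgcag
The Shmt1 window held 4 GC boxes, of which the ones starting at -32 and -27 share 1 base, and a CCAAT box on the reverse strand at -47. The Mthfd1 window held 1 GC box and 1 CCAAT box, both on the reverse strand. The Shmt2 window held neither, and its GC content was 40.8%, against 60% for Shmt1, 59.2% for Mthfd1 and a median of 52.4% over 32851 promoters. The GC box occurred in 32.7% of all these windows and the CCAAT box in 33.8%. Of the 9 members with an entry in the table, 6 had a GC box and 7 a CCAAT box. A member was counted if any of its windows matched, while the shares are of single windows. The element TGATGNAA, known from targets of ATF4, was in 0 of the 9 against 3.45% of all promoters, and the E-box CACGTG was in 0 of the 9 against 6.02%. The TATA box TATAAA was found in Phgdh alone of the 9, against 12.4% of all promoters. These are matches of letters in short windows and describe sequence only.

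Shmt1, the cytosolic hydroxymethyltransferase (chromosome 11, 60788886 to 60811265, GRCm38.p6), was at 11.3, 11.7 and 9.39 CPM in compound hearts, from 205, 209 and 168 reads. It was at 5.89, 4.08 and 4.05 CPM in HRC variant hearts, from 119, 78 and 73 reads, and at 7.39, 8.75 and 6.11 CPM in MYBPC3 deletion hearts, from 117, 138 and 115 reads. Nontransgenic hearts had 18.5, 11.7 and 9.06 CPM, from 311, 228 and 186 reads. Both single-mutant groups therefore lay below every nontransgenic heart, and the compound hearts lay above every single-mutant heart and within the nontransgenic range. The gap to the nontransgenic group was narrow for the deletion, where the highest MYBPC3 deletion heart, a male, had 8.75 CPM and the lowest nontransgenic heart, the female, had 9.06 CPM.

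**Figure D1:**
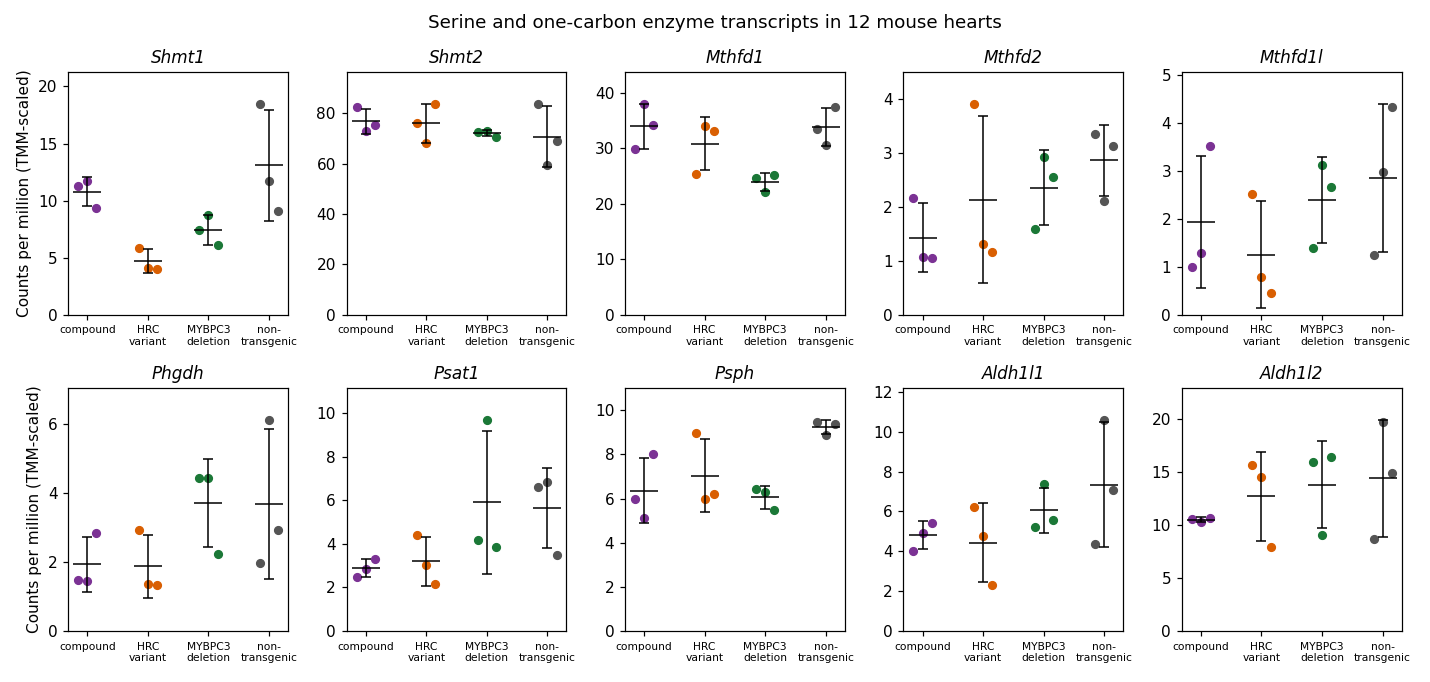
CPM of each of the 10 enzyme genes (vertical axes, each from 0) in 12 hearts by group, with points for libraries, a wide bar for the group mean and error bars for the SD (n = 3). Shmt1 was lower in both single-mutant groups than in compound and nontransgenic hearts, Shmt2 was near the same level in all groups, and Mthfd1 was lowest in the MYBPC3 deletion group.

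In a model with terms for group and sex, the fitted difference of Shmt1 on the log2 scale was 1.21 (SE 0.23) for compound over HRC variant hearts, or 2.31-fold. It was 0.94 (SE 0.28) for compound over MYBPC3 deletion hearts, or 1.91-fold, and 0.14 (SE 0.27) for compound over nontransgenic hearts. The HRC variant alone gave -1.07 (SE 0.27) and the MYBPC3 deletion alone -0.79 (SE 0.22) against nontransgenic hearts. Each alteration thus went with a lower Shmt1 level in hearts that lacked the other alteration and a higher level in hearts that carried it. The interaction, that is, how far the compound value lies from what the single log2 differences add up to, was 2.00 (SE 0.32) on the log2 scale. Over all 13849 genes edgeR called 0 interactions (0%) and DESeq2 called 50 (0.361%), and nothing is read from these counts for the members. As a description, 40 of 13849 genes (0.289%) had an interaction at least that high, and 325 (2.35%) had one as large in either direction. The pattern in which the deletion's effect lay apart in opposite directions without and with the HRC variant was found in 112 of 13849 genes (0.809%), and the matching pattern for the HRC variant's effect in 101 genes (0.729%). Of the 10 members, Shmt1 was the one in either list, which is what it was picked for. For Shmt1 the groups lay apart in 4 of the 5 pairwise comparisons, and since its values chose it nothing is read from this count.

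The size of these Shmt1 differences moved with the sex term. Both nontransgenic males, at 18.5 and 11.7 CPM, stood above the nontransgenic female, and both MYBPC3 deletion males, at 7.39 and 8.75 CPM, stood above the female of that group at 6.11 CPM. Without the sex term the difference of the HRC variant from nontransgenic hearts was -1.48, that of the compound from the MYBPC3 deletion was 0.55, and that of the compound from nontransgenic hearts was -0.27. The authors' deposited table gives log2 fold changes of 1.22 for compound over HRC variant, 0.56 for compound over MYBPC3 deletion, -0.27 for compound over nontransgenic, -1.49 for HRC variant over nontransgenic and -0.82 for MYBPC3 deletion over nontransgenic. In females alone, with 1 nontransgenic and 1 MYBPC3 deletion heart, the interaction of Shmt1 was 1.77 (SE 0.42). With the log2 atrial level as a further term the interaction was 2.07 (SE 0.37). HRC variant replicates 1 and 3, at 11212 and 991 CPM of atrial markers, had 5.89 and 4.05 CPM of Shmt1.

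The deposited table lists the gene on the plus strand, while GENCODE and RefSeq place it on the minus strand, and the table differs from GENCODE in the same way for Aldh1l2. The sources used here do not say whether reads were counted by strand. Smcr8 lies on the opposite strand and overlaps the end of Shmt1 by 184 bp in GENCODE, and by 0 bp in the deposited coordinates. Smcr8 averaged 31.1 ± 2.78 CPM in compound hearts, 26.6 ± 4.66 in HRC variant hearts, 23.9 ± 5.15 in MYBPC3 deletion hearts and 25.2 ± 5.61 in nontransgenic hearts (SD, n = 3). Its part in the Shmt1 counts was not tested. Other members overlap genes that the deposited table does not hold. In GENCODE, Gm34868 on the opposite strand shares 19090 bp of gene span with Mthfd1. Gm45901, on the same strand, shares 33054 bp of gene span with Aldh1l1. The part of these genes in the counts was not tested either.

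Shmt2, the mitochondrial hydroxymethyltransferase (chromosome 10, 127517123 to 127522444), did not share the pattern. Its level was 82.5, 72.9 and 75.2 CPM in compound hearts, 76.1, 68.4 and 83.9 CPM in HRC variant hearts, 72.6, 73.1 and 70.8 CPM in MYBPC3 deletion hearts, and 83.6, 59.4 and 69.2 CPM in nontransgenic hearts. All 4 groups overlapped. The 5 pairwise log2 differences lay between 0.01 and 0.15 with SEs of 0.13 to 0.16, and edgeR's lowest adjusted p among them was 0.967. The fitted interaction of Shmt2 was -0.02 (SE 0.19), as a description.

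**Figure D2:**
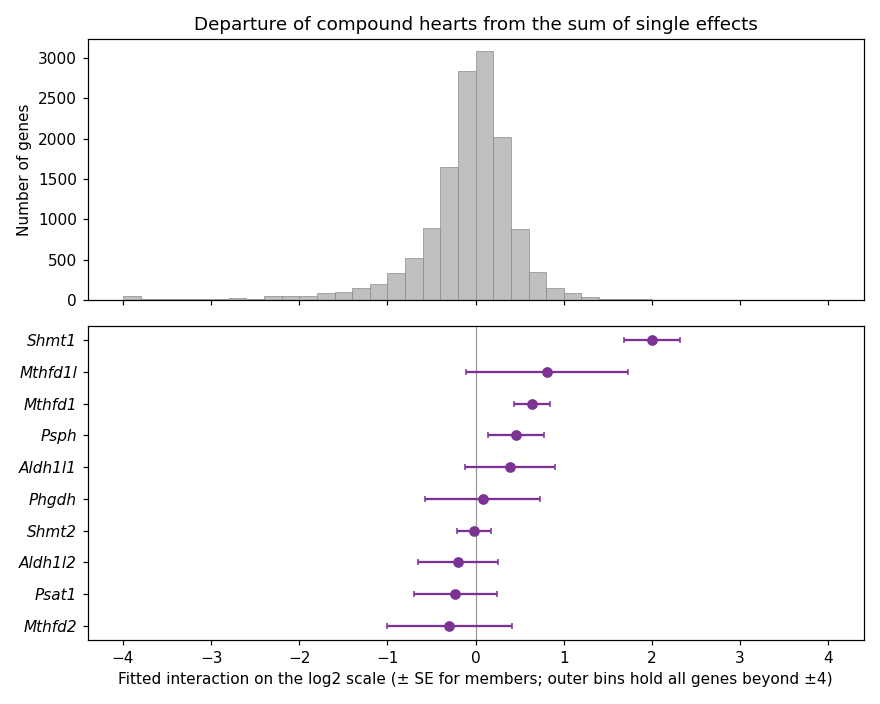
Fitted interaction on the log2 scale (horizontal axis) for 13849 genes as a histogram (upper panel, number of genes per bin) and for the 10 enzyme genes with SE bars (lower panel). Shmt1 lay at 2.00, Mthfd1l at 0.81, Mthfd1 at 0.64 and the lowest member, Mthfd2, at -0.30.

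Over the 9 members other than Shmt1, edgeR's quasi-likelihood test called 0 in each of the 5 comparisons at an adjusted p under 0.05, against a background of 0% of 13849 genes in each. DESeq2 also called 0 of the 9 in each comparison, but 6 of its 45 adjusted p-values were not given. All 6 were for MYBPC3 deletion over nontransgenic: Mthfd2, Mthfd1l, Phgdh, Psat1, Psph and Aldh1l1. DESeq2 could therefore not call these members there. Its background was 0.325% of genes for compound over HRC variant, 0.0433% for compound over MYBPC3 deletion and 0.274% for compound over nontransgenic. It was 0.181% for HRC variant over nontransgenic and 0.664% for MYBPC3 deletion over nontransgenic. Genes without an adjusted p are counted in the totals behind these shares. At an unadjusted p under 0.05 edgeR had 0 of the 9 members for compound over HRC variant, against 6.30% of all genes, 1 for compound over MYBPC3 deletion (5.73%; higher, 2.34%), 0 for compound over nontransgenic (6.36%), 0 for HRC variant over nontransgenic (6.23%) and 2 for MYBPC3 deletion over nontransgenic (8.16%; both lower, 5.22%). These counts do not stand out from the background. By sign, 8 of the 9 had a fitted value below 0 for compound over nontransgenic, with a median of -0.48, and 8 of 9 for HRC variant over nontransgenic, with a median of -0.34. For MYBPC3 deletion over nontransgenic 7 of 9 were below 0 (median -0.19), for compound over MYBPC3 deletion 6 of 9 (median -0.39), and for compound over HRC variant 4 of 9 (median 0.01). The median of all genes was between -0.01 and 0.01 in each comparison. The 3 comparisons with nontransgenic hearts share those hearts, and the members share the libraries, so these signs are not separate pieces of evidence.

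**Figure D3:**
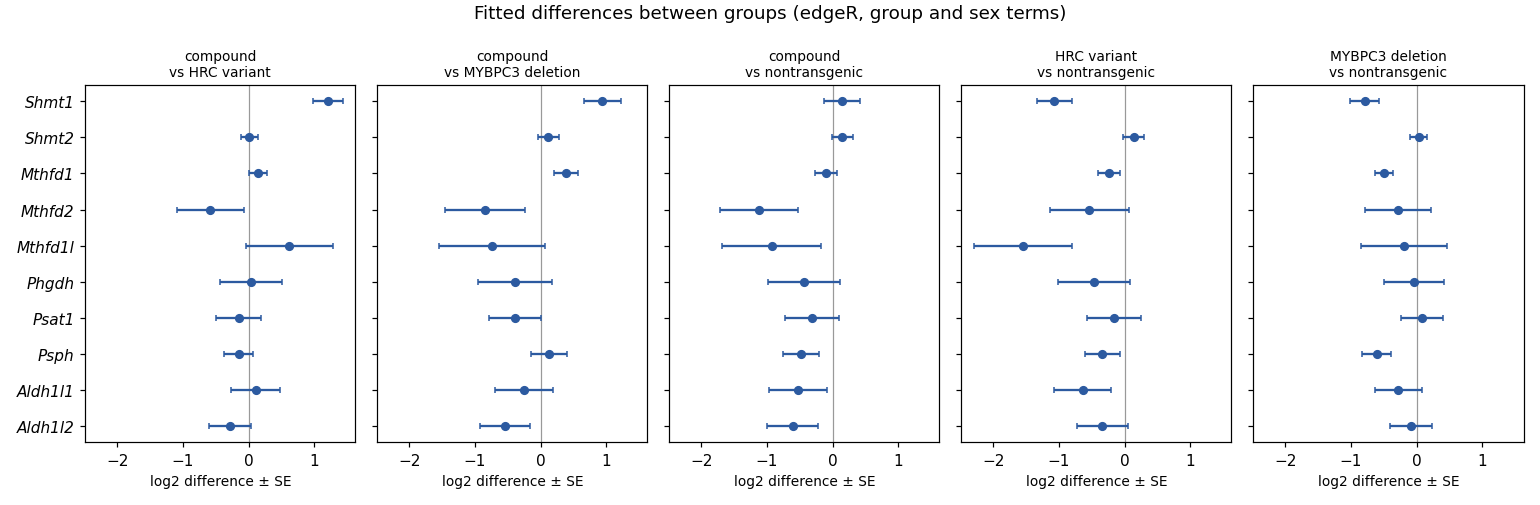
Fitted log2 differences with SE (horizontal axis) of the 10 enzyme genes (rows) in the 5 pairwise comparisons (panels), from a model with group and sex as terms. The values of Shmt1 are descriptions, and 0 of the other 9 genes passed the test in any panel.

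Among the cytosolic folate enzymes, Mthfd1, the trifunctional enzyme that interconverts folate-bound carbon units (chromosome 12, 76254562 to 76321128), came nearest to the threshold. Its level was 29.9, 38 and 34.2 CPM in compound hearts, 25.3, 34 and 33.2 CPM in HRC variant hearts, 24.6, 22.1 and 25.2 CPM in MYBPC3 deletion hearts, and 33.5, 30.7 and 37.4 CPM in nontransgenic hearts. In CPM all 3 MYBPC3 deletion hearts were below every nontransgenic and every compound heart. In the authors' TPM, which also scales by transcript length, MYBPC3 deletion replicate 3 had 14 and nontransgenic replicate 1 had 13.5. The MYBPC3 deletion and nontransgenic groups thus overlapped in TPM. The lowest compound heart, at 15.8 TPM, was still above every MYBPC3 deletion heart. The log2 difference of MYBPC3 deletion from nontransgenic hearts was -0.50 (SE 0.14; edgeR adjusted p = 0.391; DESeq2 adjusted p = 0.0992), lower in 3 of 3 hearts by CPM. That of compound from MYBPC3 deletion hearts was 0.39 (SE 0.18; edgeR adjusted p = 0.862; DESeq2 adjusted p = 0.681). The authors' deposited table gives 0.52 for the same pair with a q-value of 0.0338, the 1 value under 0.05 among the 9 members in that table, and the fit without the sex term gave 0.51. With the atrial level as a term this difference was 0.16 (SE 0.23), while that of the MYBPC3 deletion from nontransgenic hearts was -0.52 (SE 0.14). The fitted interaction of Mthfd1 was 0.64 (SE 0.20), the same sign as that of Shmt1 and given as a description.

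Aldh1l1, the cytosolic 10-formyltetrahydrofolate dehydrogenase, which removes carbon units as carbon dioxide (chromosome 6, 90485904 to 90599171), was at 4.04, 4.94 and 5.42 CPM in compound hearts, 6.23, 4.76 and 2.33 CPM in HRC variant hearts, 5.24, 7.36 and 5.58 CPM in MYBPC3 deletion hearts, and 4.35, 10.6 and 7.06 CPM in nontransgenic hearts. The groups overlapped in every comparison, and the lowest adjusted p of edgeR was 0.896. The highest value was in nontransgenic replicate 2, which also had the highest atrial level, and the lowest in HRC variant replicate 3, which had the lowest. Compound over nontransgenic hearts gave a log2 difference of -0.53 (SE 0.44), and 0.69 (SE 0.48) with the atrial level as a term.

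Of the mitochondrial folate enzymes, Mthfd2, a dehydrogenase and cyclohydrolase known for low levels in adult tissue (chromosome 6, 83305704 to 83326035), had 19 to 79 reads per library. It was at 2.16, 1.07 and 1.06 CPM in compound hearts, 3.91, 1.31 and 1.17 CPM in HRC variant hearts, 1.58, 2.92 and 2.55 CPM in MYBPC3 deletion hearts, and 3.34, 2.11 and 3.12 CPM in nontransgenic hearts. Compound replicate 1 alone reached into the nontransgenic range, where the lowest heart had 2.11 CPM. On the log2 scale compound over nontransgenic hearts gave -1.12 (SE 0.60; edgeR adjusted p = 0.831), and with the atrial level as a term it was -0.20 (SE 0.80).

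Mthfd1l, the mitochondrial formate-releasing synthetase (chromosome 10, 3972782 to 4167081), had 8 to 89 reads per library. It was at 0.995, 1.29 and 3.52 CPM in compound hearts, 2.52, 0.785 and 0.444 CPM in HRC variant hearts, 1.39, 3.11 and 2.66 CPM in MYBPC3 deletion hearts, and 1.25, 2.98 and 4.33 CPM in nontransgenic hearts. The range within every group was wider than any difference between 2 group means. The log2 difference of HRC variant from nontransgenic hearts was -1.55 (SE 0.75; edgeR adjusted p = 0.811), and -2.56 without HRC variant replicate 1.

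Aldh1l2, the mitochondrial counterpart of Aldh1l1 (chromosome 10, 83484956 to 83534151), was at 10.6, 10.3 and 10.7 CPM in compound hearts, 15.7, 14.5 and 7.93 CPM in HRC variant hearts, 16, 9.07 and 16.4 CPM in MYBPC3 deletion hearts, and 8.7, 19.7 and 14.9 CPM in nontransgenic hearts. The compound hearts were close to each other, with an SD of 0.221 CPM, and lay inside the range of every other group. For compound over nontransgenic hearts the log2 difference was -0.61 (SE 0.39; edgeR adjusted p = 0.879), and 0.45 (SE 0.39) with the atrial level as a term. D10Wsu102e lies on the opposite strand and overlaps Aldh1l2, with 1056 bp shared in GENCODE and 3550 bp in the deposited coordinates, and reads in the shared stretch cannot be told apart if counting ignored strand.

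Of the enzymes of serine synthesis, Phgdh, the first step (chromosome 3, 98313171 to 98339969), had 24 to 119 reads per library. It was at 1.49, 1.46 and 2.85 CPM in compound hearts, 2.92, 1.36 and 1.33 CPM in HRC variant hearts, 4.42, 4.44 and 2.23 CPM in MYBPC3 deletion hearts, and 1.97, 6.11 and 2.92 CPM in nontransgenic hearts. The compound group overlapped with each other group, and the highest value was again in nontransgenic replicate 2. Against nontransgenic hearts the compound value was, on the log2 scale, -0.43 (SE 0.55; edgeR adjusted p = 0.977), and 0.72 (SE 0.68) with the atrial level as a term.

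Psat1, the transaminase of the second step (chromosome 19, 15905123 to 15925059), was at 2.49, 2.86 and 3.3 CPM in compound hearts, 4.4, 3.03 and 2.16 CPM in HRC variant hearts, 4.17, 9.7 and 3.88 CPM in MYBPC3 deletion hearts, and 6.61, 6.83 and 3.51 CPM in nontransgenic hearts. All compound hearts were below every MYBPC3 deletion heart and every nontransgenic heart, narrowly so, since the highest compound heart had 3.3 CPM and the lowest nontransgenic heart 3.51 CPM. Both of these groups' females were the hearts nearest to the compound level. The log2 difference of compound from MYBPC3 deletion hearts was -0.39 (SE 0.40; edgeR adjusted p = 0.959) and that from nontransgenic hearts was -0.32 (SE 0.41; edgeR adjusted p = 0.977). Without the sex term these values were -1.03 and -0.97.

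Psph, the phosphatase of the last step (chromosome 5, 129765368 to 129787253), was at 5.97, 5.11 and 8 CPM in compound hearts, 8.95, 5.96 and 6.21 CPM in HRC variant hearts, 6.44, 6.28 and 5.47 CPM in MYBPC3 deletion hearts, and 9.47, 8.89 and 9.4 CPM in nontransgenic hearts. In CPM the nontransgenic hearts were close together and above every compound and every MYBPC3 deletion heart, and HRC variant replicate 1 reached their range. In the authors' TPM the nontransgenic hearts spread from 8.82 to 11.6, and compound replicate 3, at 9.7, lay within that range. The MYBPC3 deletion hearts, at most 7.16 TPM, stayed below it. The log2 difference of MYBPC3 deletion from nontransgenic hearts was -0.61 (SE 0.22; edgeR adjusted p = 0.515), lower in 3 of 3 hearts, and DESeq2 gave no adjusted p. That of compound from nontransgenic hearts was -0.48 (SE 0.27; edgeR adjusted p = 0.838), and -0.11 (SE 0.35) with the atrial level as a term. Cct6a overlaps the start of Psph on the opposite strand and averaged between 97.8 and 103 CPM in the groups.

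Counted by groups that lay apart in CPM in either direction, the 9 tested members gave 0 for compound over HRC variant, against 12.4% of all genes. For compound over MYBPC3 deletion 2 lay apart, Mthfd1 and Psat1, against 25.1%. For compound over nontransgenic 2 lay apart, Psat1 and Psph, against 18.8%. For HRC variant over nontransgenic 0 lay apart, against 7.94%, and for MYBPC3 deletion over nontransgenic 2 lay apart, Mthfd1 and Psph, against 10.4%. With 9 genes the smallest share above 0 is 1 of 9, so these counts do not stand out from the background.

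**Figure D4:**
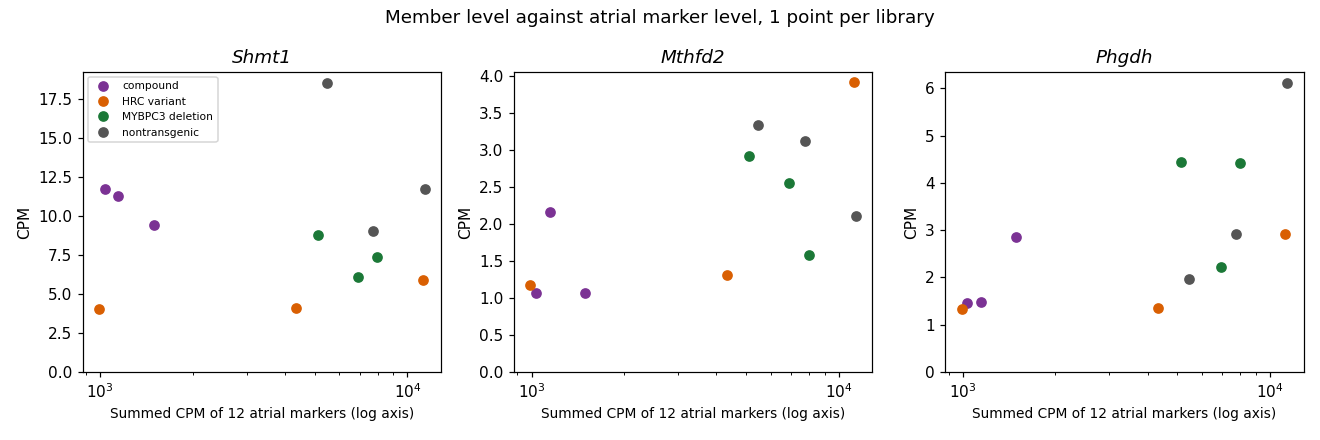
CPM of Shmt1, Mthfd2 and Phgdh (vertical axes, from 0) against the summed CPM of 12 atrial markers (horizontal, log axis), 1 point per library coloured by group. The compound hearts, at 1033 to 1491 CPM of atrial markers, had 9.39 to 11.7 CPM of Shmt1, at most 2.16 CPM of Mthfd2 and at most 2.85 CPM of Phgdh.

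Several members were high or low in the same libraries as the atrial markers, as set beside their values above. In a fit with the log2 atrial level as a term, chosen after those levels had been seen, several compound contrasts changed sign. Those of Mthfd1l, Phgdh, Psat1, Aldh1l1 and Aldh1l2 over MYBPC3 deletion and over nontransgenic hearts went from below 0 to above 0. They ranged from 0.11 (SE 0.52) for Psat1 over MYBPC3 deletion to 1.03 (SE 0.91) for Mthfd1l over nontransgenic hearts. Those of Shmt2 went the other way, to -0.07 (SE 0.21) over MYBPC3 deletion and -0.06 (SE 0.22) over nontransgenic hearts. Over HRC variant hearts, Mthfd2 went from -0.58 to 0.11 (SE 0.62) and Psat1 from -0.15 to 0.22 (SE 0.41). There Psph went from -0.15 to 0.08 (SE 0.26) and Aldh1l2 from -0.28 to 0.40 (SE 0.28). Shmt2 went there from 0.01 to -0.11 (SE 0.16) and Mthfd1 from 0.14 to -0.00 (SE 0.17). Mthfd1l kept its sign there, from 0.62 to 2.09 (SE 0.73, edgeR adjusted p = 0.793). So did Aldh1l1, from 0.11 to 0.92 (SE 0.35, edgeR adjusted p = 0.858). The compound contrasts of Shmt1 kept their sign in that fit, with 1.29 over HRC variant, 1.05 over MYBPC3 deletion and 0.27 over nontransgenic hearts. All 3 compound hearts were low in atrial markers, and the part of the atrial level in the members' differences was not tested. Fibroblast markers, summed over 11 genes, were also lowest in the compound group, at 3067 to 3708 CPM, against 3154 to 7371 CPM in HRC variant hearts, 4419 to 5075 CPM in MYBPC3 deletion hearts and 4175 to 5008 CPM in nontransgenic hearts. Markers of hepatocytes, in which Shmt1 is abundant, summed to at most 4.44 CPM in any library over the 8 of 10 genes in the table. Cycling-cell markers summed to 59.9 to 79.5 CPM in compound hearts, 45.7 to 89.7 CPM in HRC variant hearts, 45.2 to 61.6 CPM in MYBPC3 deletion hearts and 35.2 to 41.2 CPM in nontransgenic hearts. Macrophage markers summed to 379 to 453 CPM in compound, 372 to 736 in HRC variant, 557 to 749 in MYBPC3 deletion and 483 to 618 in nontransgenic hearts. Endothelial markers summed to 1459 to 1645 CPM in compound, 1523 to 1735 in HRC variant, 1407 to 1651 in MYBPC3 deletion and 1663 to 2017 in nontransgenic hearts. Fat cell markers summed to 185 to 753 CPM over all libraries. The part of these cell types was not tested.

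Levels between genes were compared per length, in the authors' TPM, a level relative to transcript length and library total. In nontransgenic hearts Shmt2 was the highest member at 49.9 ± 3.64 TPM, then Mthfd1 at 16.7 ± 3.24, Psph at 10.5 ± 1.47 and Shmt1 at 10.3 ± 2.36 TPM (SD, n = 3). Aldh1l2 at 4.26 TPM, Psat1 at 4.24, Aldh1l1 at 4.06, Phgdh at 3.4, Mthfd2 at 2.22 and Mthfd1l at 1.32 TPM followed, and neighbours in this lower run overlapped in their range over the 3 hearts. Shmt2 and Mthfd1, Mthfd1 and Psph, and Shmt1 and Aldh1l2 did not overlap, while Psph and Shmt1 did. Shmt1 was at 9.27 ± 0.97 TPM in compound hearts, 4.01 ± 0.768 TPM in HRC variant hearts and 5.84 ± 0.237 TPM in MYBPC3 deletion hearts. By the authors' TPM, Shmt1 had rank 3 of the 10 in compound hearts and rank 4 in each other group. In HRC variant hearts its range overlapped that of Aldh1l2, at 3.92 TPM, and in compound and nontransgenic hearts that of Psph. With lengths of GENCODE transcripts, nontransgenic Shmt1 was at 9.57 (longest) or 14.8 TPM (mean) and Psph at 6.94 or 11.8 TPM. The order of these 2 genes thus depends on the lengths used.

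**Figure D5:**
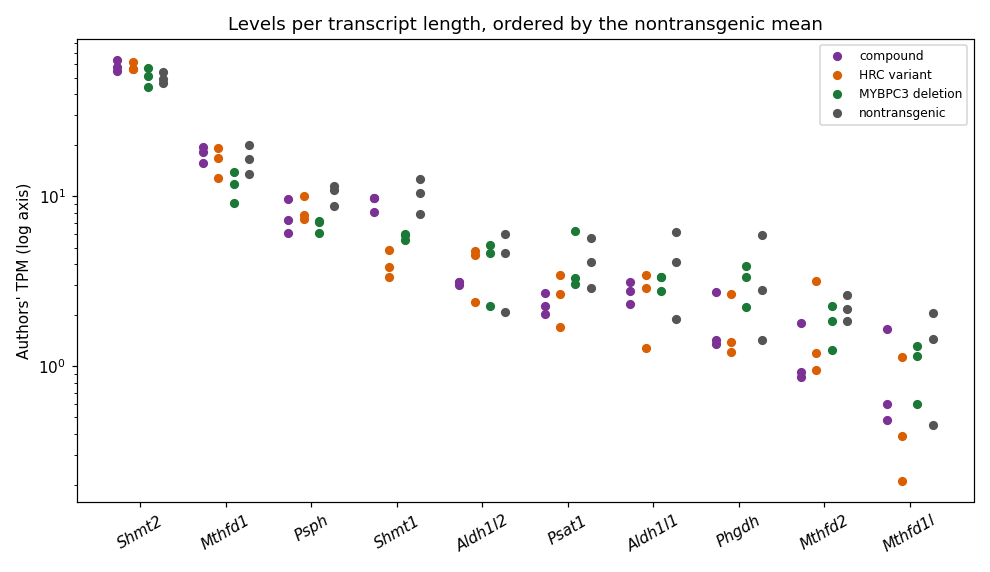
Authors' TPM (vertical, log axis) of the 10 enzyme genes, ordered by the nontransgenic mean, with 1 point per heart and groups side by side within each gene. Shmt2 was above every other member in all 12 hearts, at 44.4 to 63.7 TPM.

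Outside the 10 members, 6 lists of related genes held 77 tested genes, and edgeR called 0 of them in each of the 5 comparisons. At an unadjusted p under 0.05 there were 6 of the 77 for compound over HRC variant, against 6.30% of all genes, 7 for compound over MYBPC3 deletion (5.73%), 6 for compound over nontransgenic (6.36%), 5 for HRC variant over nontransgenic (6.23%) and 1 for MYBPC3 deletion over nontransgenic (8.16%). Nothing is read from these counts. DESeq2 called 1 gene, Sds, for compound over HRC variant (against 0.325% of all genes) and for compound over nontransgenic (0.274%), and 0 in the other 3 comparisons. For MYBPC3 deletion over nontransgenic it gave no adjusted p for Sds or Gldc and so could not call them there. In the rest of the folate cycle (15 of 17 genes tested) 5 to 11 of 15 genes had a fitted value above 0 in the 5 comparisons, with medians between -0.16 for compound over HRC variant and 0.09 for HRC variant over nontransgenic. Tyms, thymidylate synthase, had the smallest p of that list for compound over HRC variant, at -0.51 (SE 0.24; edgeR adjusted p = 0.787) and with group means of 4.15 ± 0.249 CPM in compound hearts and 5.9 ± 1.07 CPM in HRC variant hearts (SD, n = 3 each). Slc25a32, the mitochondrial folate carrier, had it for MYBPC3 deletion over nontransgenic, at -0.33 (SE 0.18; edgeR adjusted p = 0.672), and its groups overlapped.

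Sds, a serine dehydratase that breaks serine down, had the smallest p of 18 tested genes of serine transport and use in 4 of the 5 comparisons. In the fifth, HRC variant over nontransgenic, that was Ptdss2, which makes phosphatidylserine, at -0.28 (SE 0.15; edgeR adjusted p = 0.853). Sds had 4, 1 and 7 reads in compound hearts (0.221, 0.0561 and 0.391 CPM), 147, 78 and 5 reads in HRC variant hearts (7.27, 4.08 and 0.277 CPM), 66, 52 and 77 reads in MYBPC3 deletion hearts (4.17, 3.3 and 4.09 CPM) and 63, 198 and 171 reads in nontransgenic hearts (3.75, 10.2 and 8.33 CPM). The 4 libraries with under 10 reads were the 4 with the lowest atrial level. Compound over nontransgenic hearts gave a log2 difference of -5.14 (SE 1.10; edgeR adjusted p = 0.536; DESeq2 adjusted p = 0.0262), and -1.75 with the atrial level as a term. For compound over HRC variant the value was -4.08 (SE 1.02; edgeR adjusted p = 0.559; DESeq2 adjusted p = 0.0317), and -1.39 with the atrial level as a term. Gldc, the decarboxylase of the glycine cleavage system, had 1, 4 and 3 reads in compound hearts, against 5 to 32 reads in the other 9, and gave -2.61 (SE 0.76; edgeR adjusted p = 0.638) for compound over HRC variant. Median values over the 4 genes of that system lay between -0.06 for MYBPC3 deletion over nontransgenic and 0.29 for HRC variant over nontransgenic.

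In the methionine cycle (13 of 15 genes in the table tested) 11 of 13 genes had a fitted value below 0 for HRC variant over nontransgenic (median -0.15), against 49.3% of all genes, and 11 of 13 for MYBPC3 deletion over nontransgenic (median -0.17), against 50.8%. For compound over nontransgenic 8 of 13 were below 0 (median -0.05), against 50.3%, and for compound over each single mutant 6 of 13, with medians of 0.02 over the HRC variant (52.4%) and 0.11 over the MYBPC3 deletion (47.8%). Ahcy, which hydrolyses S-adenosylhomocysteine, averaged 43.2 ± 5.02 CPM in MYBPC3 deletion hearts and 52.5 ± 3.66 CPM in nontransgenic hearts, a log2 difference of -0.29 (SE 0.11; edgeR adjusted p = 0.554). Purine synthesis, a pathway that takes up folate-bound carbon at some of its steps, had medians between -0.06 and 0.08 over 8 genes in the 5 comparisons. The smallest p was that of Ppat for compound over HRC variant, at 0.39 (SE 0.16; edgeR adjusted p = 0.75). Of 19 further targets of ATF4, a transcription factor known to drive serine synthesis genes, 15 had a fitted value below 0 for compound over HRC variant (median -0.15), 17 for compound over MYBPC3 deletion (median -0.18) and 14 for compound over nontransgenic (median -0.23). For HRC variant over nontransgenic 12 were below 0 (median -0.05), and for MYBPC3 deletion over nontransgenic 6 (median 0.05). The shares of all genes below 0 are those given for the methionine cycle, and the comparisons share their groups. Nupr1 averaged 4.17 ± 0.514 CPM in compound hearts and 13.7 ± 6.71 CPM in MYBPC3 deletion hearts, a log2 difference of -1.49 (SE 0.51; edgeR adjusted p = 0.862), and Chac1 gave -1.58 (SE 0.54; edgeR adjusted p = 0.683) for HRC variant over nontransgenic.

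The genes whose pattern over the 12 libraries was most like that of Shmt1, by the root mean square difference of centred log2 CPM among 11253 genes, were Gadd45a at 0.35, Ccne1 at 0.36, Fah at 0.37, Leng9 at 0.38 and Mal at 0.41. The median over all genes considered was 0.66, and Shmt1 itself varied by 0.62 around its own mean. Gadd45a averaged 16.5 ± 1.62 CPM in compound hearts, 10.8 ± 2.03 in HRC variant hearts, 14.9 ± 1.66 in MYBPC3 deletion hearts and 16.3 ± 5.65 in nontransgenic hearts (SD, n = 3). Fah averaged 27.5 ± 5.4 CPM in compound hearts, 21.2 ± 1.05 in HRC variant hearts, 26.8 ± 9.6 in MYBPC3 deletion hearts and 37.2 ± 9.86 in nontransgenic hearts. Unlike Shmt1, Ccne1, Leng9 and Mal were about equal or lower on average in compound than in MYBPC3 deletion hearts. The respective means were 2.17 and 2.29 CPM for Ccne1, 4.67 and 4.67 for Leng9, and 22.3 and 23.3 for Mal. Of the other members considered, Psph was nearest to Shmt1 at 0.58, and Mthfd1 was at 0.62, Shmt2 at 0.63, Psat1 and Aldh1l1 at 0.65, Mthfd2 at 0.74, Aldh1l2 at 0.79 and Phgdh at 0.8.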

How the data were processed

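Per the file headers, the authors deposited 1 table with an expected count (an estimated read number that need not be whole) and a TPM value per gene and library, and log2 fold changes with DESeq2 q-values for pairs of groups. Of the deposited counts 94.3% were whole. HISAT, Bowtie2, DESeq2 and the build GRCm38.p6 are named in the submitters' processing notes; roles, versions, the counting tool and its use of strand are not given in the sources. In the table, 1 of 17380 lines held no gene and was dropped, and 25 symbols that had become dates were restored by gene identifier.

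Counts were rounded and tested with edgeR 4.0.16 in R 4.3.3: TMM scaling, a minimum count of 10 (13849 genes kept, 3530 removed, all 10 members kept), a robust quasi-likelihood fit over 12 libraries with group and sex as terms (7 residual degrees of freedom, common biological coefficient of variation 21.5%), and Benjamini-Hochberg adjustment over all genes with calls under 0.05. The script was tested on simulated data. DESeq2 1.42.0 was an alternative. Levels between genes used the authors' TPM, whose gene lengths are not given.

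The members and gene lists were chosen with earlier results of these data known. Named outside the members are, per list and comparison, genes called or the 1 with the smallest p, and the 5 genes most like Shmt1 (mean log2 CPM of at least 1, no model or clone names, not sex-linked). Some results chosen by this rule are not reported here.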

Additional observations from a re-analysis of the deposited data

Results flagged for a closer look

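Shmt1 was singled out because the effect of each alteration had opposite, non-overlapping directions without and with the other. The HRC variant's log2 difference was 0.94 in hearts with the MYBPC3 deletion and -1.07 in hearts without it. The MYBPC3 deletion's log2 difference was 1.21 in hearts with the HRC variant and -0.79 in hearts without it. The fitted interaction was 2.00 (SE 0.32). The difference was not tested here, since Shmt1 was chosen for it.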

How the results depend on the processing

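The members' pairwise differences were recomputed under 23 other settings and their interactions under 22, of which the fit with the atrial level as a term was added after seeing the data. A further setting that left out nontransgenic replicate 1 and HRC variant replicate 1 together was run and dropped, because those libraries had been picked for their Shmt1 level. Over 1029 adjusted p-values of the 9 tested members 0 passed. Of 1370 member values, with Shmt1 and the interactions included, 89 differed in sign from the value reported and 77 moved by more than 1 SE. None of the tested values among the 89 was called, and those of Shmt1 and of the interactions were not tested. Shmt1 kept its sign throughout except for compound over nontransgenic hearts, which lay between -0.27 and 0.27 with 3 sign changes, and its interaction lay between 1.71 and 2.20. Against 0 genes called in each comparison, DESeq2 called 45 for compound over HRC variant, 6 for compound over MYBPC3 deletion, 38 for compound over nontransgenic, 25 for HRC variant over nontransgenic, 92 for MYBPC3 deletion over nontransgenic and 50 for the interaction. Fits of only the groups compared called 57 for compound over MYBPC3 deletion, 15 for compound over nontransgenic and 1 for MYBPC3 deletion over nontransgenic. Without HRC variant replicates 2 and 3 the counts were 308 for compound over HRC variant, 17 for compound over MYBPC3 deletion, 37 for compound over nontransgenic, 1 for HRC variant over nontransgenic and 189 for the interaction, with a lone HRC variant library assumed to vary like the other groups. Leaving out 1 replicate at a time gave 0 to 13 for compound over HRC variant (13 without HRC variant replicate 3, 4 without HRC variant replicate 1), 0 to 3 for compound over nontransgenic (3 without HRC variant replicate 3, 1 without nontransgenic replicate 1), 0 to 8 for HRC variant over nontransgenic (8 without HRC variant replicate 1, 1 without compound replicate 3) and 0 to 5 for the interaction (5 without HRC variant replicate 1). The cause was not tested. Of 682 values of list genes chosen by the naming rule, 5 differed in sign, 36 moved by more than 1 SE and 9 were called, all of Sds. Sds was called by DESeq2, without HRC variant replicate 3 and without HRC variant replicates 2 and 3 for compound over HRC variant and over nontransgenic, in fits of only the groups compared for compound over MYBPC3 deletion and over nontransgenic, and without HRC variant replicates 2 and 3 for compound over MYBPC3 deletion. Marker sums were not recomputed. The replicate block gave 1 called gene for the interaction and 0 in the pairwise comparisons. The numbers do not pair the samples: same-numbered samples correlated between -0.240 and 0.316 in their deviations from the group means. Of the 12 samples, 2 in all correlated best, among samples of other groups, with 1 of their own number. With lengths of GENCODE transcripts in place of the authors', the nontransgenic level of Shmt1 was 9.57 (longest) or 14.8 TPM (mean), and that of Shmt2 65.8 or 76.5 TPM. Depth limits Mthfd1l, Mthfd2 and Phgdh most, with 8 to 119 reads per library.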
